A study of Mus musculus with 12 samples.

Results

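The genes described here are 7 genes of MHC class II antigen presentation, H2-Aa, H2-Ab1, H2-Eb1, Cd74, Ciita, H2-DMa and H2-DMb1. They were chosen by name for their role and not by their values, and they are 7 of the 38898 genes with transcripts in the deposited files. RNA-seq was analysed for 12 bulk tumors grown from Rd76-9 cells, a mouse embryonal rhabdomyosarcoma (RMS) line, in the flanks of adult mice with an intact immune system, whose genotype is given as WT and strain as C57/Bl6J. The study asked how low-dose vincristine (VCR, a drug that blocks microtubule assembly) and RCM1, an inhibitor of the transcription factor FOXM1 carried in folic acid nanoparticles (RCM1-NPFA), act together on these tumors. Tumors were taken 16 days after inoculation, with 3 tumors in each of 4 groups. Vehicle tumors (m1, m2 and m3) received empty nanoparticles and saline, VCR tumors (m4, m5 and m6) 0.25 mg/kg VCR, RCM1-NPFA tumors (m7, m8 and m9) 8 µg RCM1, and VCR+RCM1-NPFA tumors (m10, m11 and m12) both at the same doses. One label of the vehicle tumors also names the RCM1 nanoparticle, so they were grouped by their titles and the study's design text. The model rests on 1 cell line, and each library holds the RNA of tumor cells and host cells together. Nothing in the labels says that the tumors of a group came from separate mice, so the p-values measure the spread between these tumors.

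MHC class II molecules are pairs of an alpha and a beta chain that carry peptides from the endosome to the cell surface, where CD4+ T cells read them. They are made mainly by dendritic cells, B cells and macrophages, and other cells can make them when interferon gamma induces the transactivator Ciita. The invariant chain Cd74 guards the empty groove until proteases cut it away, and the H2-DM dimer then exchanges the remaining fragment for a peptide.

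The class II chain genes and the H2-DM genes lie together on chromosome 17 of GRCm38. From RefSeq's annotation, H2-DMa spans 34119693 to 34139101, H2-DMb1 34153191 to 34160229, H2-Ab1 34263227 to 34269418, H2-Aa 34282744 to 34287823 and H2-Eb1 34305867 to 34316674. An annotated antisense gene, Gm20513, overlaps the start of H2-Eb1, and strand may not be resolved in these libraries, so reads of that overlap are uncertain. Promoters of such genes carry conserved boxes, of which the X box is bound by the RFX complex and the Y box by NF-Y, and Ciita is recruited to the factors bound there. RefSeq promoter sequences of GRCm38.p6 were matched for 4 of the 7 members. They were searched on both strands over 300 bases for the Y core TGATTGG and for an X1 core, AGNAACNGA. The stretches shown are promoter sequence from 170 to 11 bases before the annotated start, for a pair of members that varied widely between tumors and for H2-DMa, which varied least. Capitals mark the matched cores. H2-Aa is on the minus strand at chr17:34287834-34287993, H2-Eb1 on the plus strand at chr17:34305697-34305856 and the first of the H2-DMa entries on the plus strand at chr17:34122662-34122821.
H2-Aa: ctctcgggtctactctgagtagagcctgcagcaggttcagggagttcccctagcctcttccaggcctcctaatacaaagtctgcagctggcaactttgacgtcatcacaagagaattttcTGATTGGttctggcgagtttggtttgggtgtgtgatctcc
H2-Eb1: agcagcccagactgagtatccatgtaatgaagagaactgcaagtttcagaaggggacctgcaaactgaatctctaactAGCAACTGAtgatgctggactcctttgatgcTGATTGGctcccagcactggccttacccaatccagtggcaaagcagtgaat
H2-DMa: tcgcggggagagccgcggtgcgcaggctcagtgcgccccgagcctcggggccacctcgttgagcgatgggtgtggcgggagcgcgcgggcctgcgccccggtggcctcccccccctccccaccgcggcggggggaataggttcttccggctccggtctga

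The Y core began 50 bases before the start in H2-Aa, 61 in H2-Eb1 and 63 in H2-DMb1. An X1 core began 92 bases before the start in H2-Eb1 and 95 in H2-DMb1, that is 31 and 32 bases ahead of the Y core. For H2-DMb1 these positions depend on the annotation. GENCODE, another annotation, begins its first exon at 34153072, so both cores of H2-DMb1 lie inside that exon. These exact letters were not found in either H2-DMa window, and the X1 core not in that of H2-Aa. Of all 32851 promoter windows of the same length, 7.82% held the Y core, 5.35% the X1 core and 0.381% both. A match is a description of the letters only, and its relation to the spread between tumors was not tested. The cores did not sort by that spread. H2-DMb1, which varied least after H2-DMa (6.66-fold between tumors), held both, and H2-Aa, which varied most (25.0-fold), lacked the X1 core.

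Sequencing depth was even, with 29342195 to 32108055 estimated counts per tumor. Levels are given as CPM, counts scaled to a common library size. For the members, counting error was small beside their range over the tumors. It was not small for genes with few counts, such as Flt3 (7 counts in m3), H2-Eb2 (2 in m8) and Ifng (0 in m3). The tissue label was checked against RMS markers. Myf5, a myogenic regulator, was present in all 12 tumors (48.9 to 69.9 CPM), whereas Myod1 and Myog, other regulators of this family, were at most 0.0309 and 0.0617 CPM in vehicle tumors. Vehicle tumor m1 stood apart from the others in the class II genes, so values without m1 are given beside each comparison with vehicle. They are a description, since m1 was chosen by the levels of these same genes. Mature muscle genes also differed widely between tumors, with a summed level of 93.3 CPM in m1, 8.90 in m2 and 11.2 in m3. The sum was 1329 to 10240 CPM after VCR, 68.2 to 16140 after RCM1-NPFA (highest in m9) and 326 to 3961 after both drugs. Every VCR and VCR+RCM1-NPFA tumor thus lay above every vehicle tumor. The part of muscle genes in the class II values was not tested.

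Class II transcripts were present in every tumor, and their level varied widely between the tumors of the vehicle and of the VCR+RCM1-NPFA group. The summed level of the 7 members ran from 222 TPM (a unit of transcript abundance corrected for transcript length) in vehicle tumor m3 to 4311 in vehicle tumor m1. This was 0.0222% and 0.431% of all TPM. The summed level was 454 to 2712 TPM in VCR+RCM1-NPFA tumors. It was 1029 to 1589 TPM in VCR tumors and 472 to 992 TPM in RCM1-NPFA tumors, a pair of groups that was not tested. Per length and averaged over the 12 tumors, Cd74 was highest at 639 TPM, followed by H2-Aa at 269, H2-Ab1 at 238, H2-Eb1 at 158, H2-DMb1 at 47.9, H2-DMa at 31.4 and Ciita at 3.66. In bulk tumors, fewer cells that make a transcript and less of it per cell cannot be told apart.

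Among the peptide-binding chains, H2-Aa encodes the alpha chain of the I-A molecule. Its level in CPM was 518, 64.3 and 20.8 in the vehicle tumors m1, m2 and m3, 160, 127 and 183 in the VCR tumors m4, m5 and m6, 107, 53.9 and 104 in the RCM1-NPFA tumors m7, m8 and m9, and 49.2, 225 and 313 in the VCR+RCM1-NPFA tumors m10, m11 and m12. The lowest and the highest of the 12 tumors were both vehicle tumors, and their range covered that of the other 3 groups. H2-Ab1, which encodes the partner beta chain, was at 427, 61.9 and 27.3 CPM in vehicle, 157, 131 and 174 after VCR, 112, 53.0 and 109 after RCM1-NPFA, and 50.1, 210 and 314 after both drugs, in the same tumor order. H2-Eb1 encodes the beta chain of I-E and was at 481, 59.4 and 19.5 CPM in vehicle, 139, 109 and 165 after VCR, 105, 46.6 and 97.0 after RCM1-NPFA, and 44.6, 207 and 305 after both drugs. Its usual partner chain, H2-Ea, was listed at 0 in 12 of 12 tumors, which at 3 counts allows at most 0.0914 to 0.101 CPM per tumor, counting error only. H2-Ea is annotated as a pseudogene and is not made in C57BL/6 mice.

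Of the chaperones, the invariant chain Cd74 was at 1294, 174 and 67.3 CPM in vehicle, 477, 361 and 511 after VCR, 326, 149 and 305 after RCM1-NPFA, and 129, 619 and 889 after both drugs. Cd74 showed the same order of tumors as the 3 chains. H2-DMa, the alpha chain of the peptide exchange factor, was at 58.9, 21.0 and 24.4 CPM in vehicle, 35.3, 34.4 and 30.9 after VCR, 26.0, 26.2 and 26.7 after RCM1-NPFA, and 17.7, 37.4 and 54.7 after both drugs. Its partner H2-DMb1 was at 85.5, 20.9 and 12.8 CPM in vehicle, 31.7, 28.6 and 33.7 after VCR, 25.0, 18.9 and 23.1 after RCM1-NPFA, and 13.7, 42.3 and 64.8 after both drugs. H2-DMb1 has a close paralog, H2-DMb2 (1.92 to 6.79 CPM), with which it may share reads, so the division between the pair is uncertain. The master regulator Ciita, whose product is needed for class II transcription, was at 50.8, 8.43 and 4.77 CPM in vehicle, 16.4, 9.06 and 14.0 after VCR, 9.47, 6.64 and 11.3 after RCM1-NPFA, and 7.0, 25.0 and 33.8 after both drugs. In each of these 4 genes both the VCR and the RCM1-NPFA tumors spanned a narrower range than the vehicle and the VCR+RCM1-NPFA tumors.

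**Figure D1:**
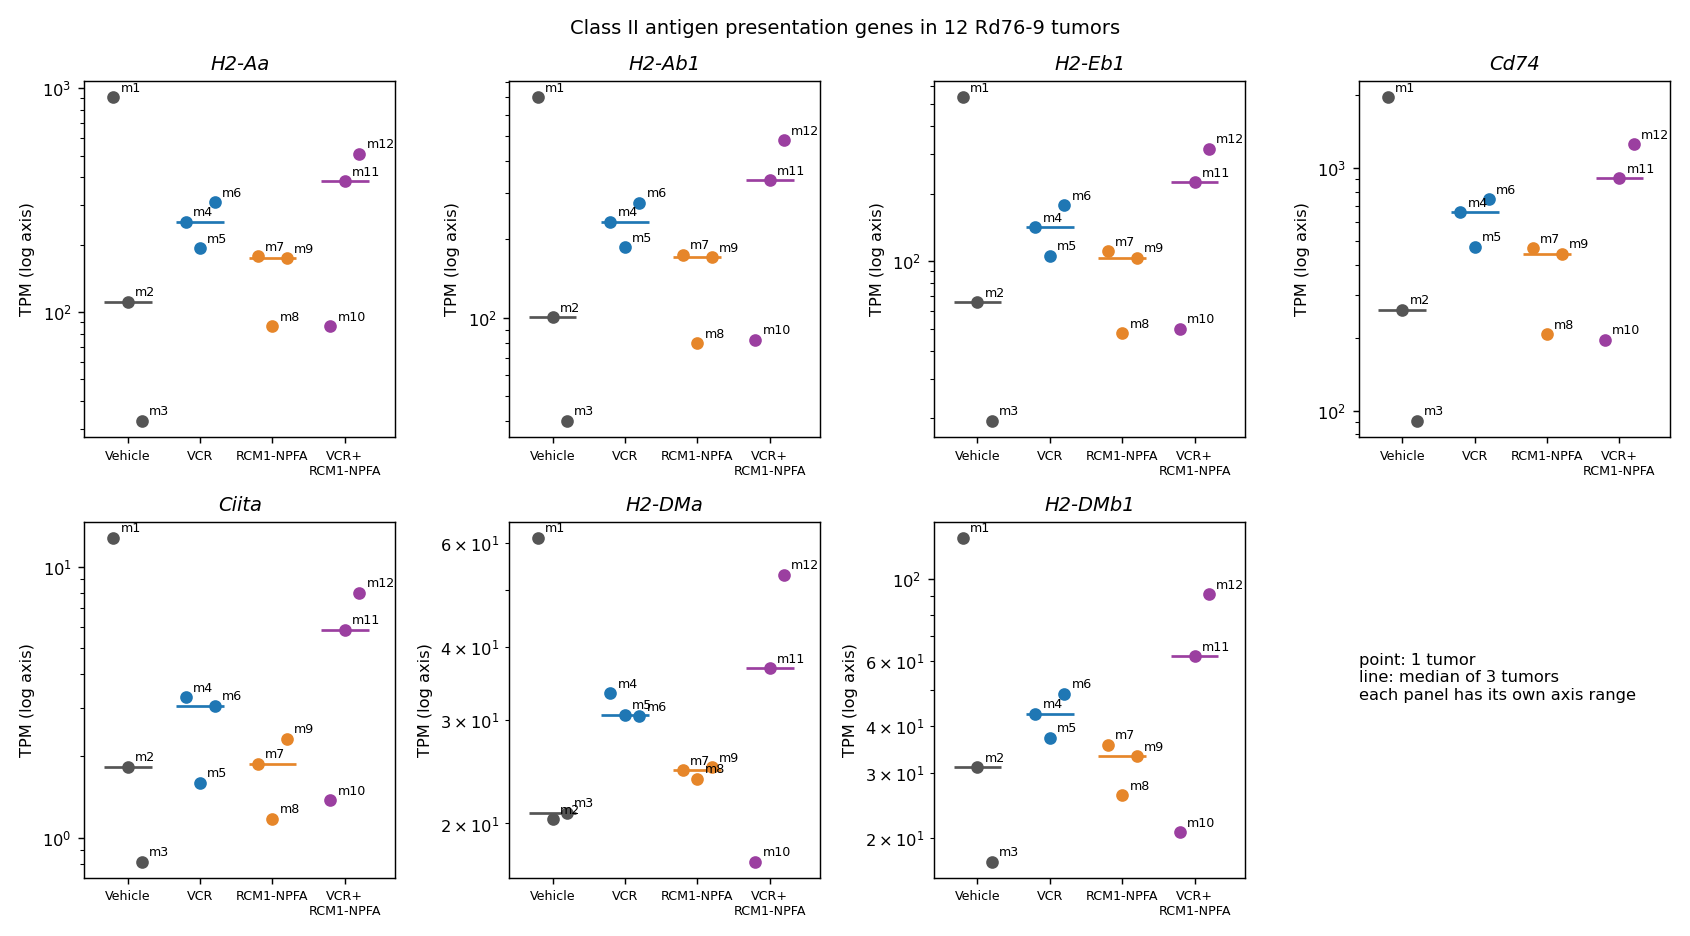
Level of each of the 7 class II genes in TPM on a log axis, with 1 point per tumor and a line at the median of the 3 tumors of each group. Vehicle tumors hold the highest value of every gene (m1) and, except for H2-DMa, the lowest (m3).

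The order of the tumors was nearly the same for all members. Tumor m1 was highest, m12 next and m11 after it for 7 of 7 genes, and m3 was lowest for 6, with m10 lowest for H2-DMa. The highest level over the lowest was 25.0 for H2-Aa, 24.7 for H2-Eb1, 19.2 for Cd74, 15.6 for H2-Ab1, 10.7 for Ciita, 6.66 for H2-DMb1 and 3.33 for H2-DMa, whereas the median of all tested genes was 1.61. The spread within groups, as the SD of log2(CPM + 0.1), was 0.58 for H2-DMa, 0.92 for H2-DMb1, 1.11 for Ciita and between 1.27 and 1.43 for the other members. It exceeded that of 91.4% of tested genes for H2-DMa and of 98.8% for H2-Eb1, and its median over all tested genes was 0.19.

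The proportions between members were steadier for the chains and Cd74 than for H2-DM. Cd74 was 2.27 to 2.81 times the TPM of H2-Ab1 in each tumor, H2-Aa 0.813 to 1.30 times and H2-Eb1 0.485 to 0.765 times. Both extremes of H2-Aa and H2-Eb1 were vehicle tumors, with m3 at the bottom and m1 at the top. H2-DMa was 0.0873 times the TPM of H2-Ab1 in m1 and 0.520 times in m3, and H2-DMb1 ranged from 0.178 times in m6 to 0.431 times in m3. The ratios of the H2-DM genes were thus larger where H2-Ab1 was low, as the ratio of any steadier gene would be. Over all tumors 73.6% of H2-DMa counts were assigned to 1 transcript and most others to transcripts predicted by RefSeq, a division that is uncertain. For Ciita this ratio was 0.00856 to 0.0203.

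The comparisons with vehicle asked whether each treatment changed class II expression, and none of the 7 members passed the test in any of them. Each gene was tested by edgeR's quasi-likelihood test over 17602 genes with a Benjamini-Hochberg threshold of 0.1. In VCR tumors against vehicle, 0 of 7 members were called, where 5.55% of all tested genes were. The 7 log2 fold changes lay between -0.70 for Ciita and -0.05 for H2-DMa, with a median of -0.34 beside a median of 0.0016 over all tested genes. H2-Ab1 differed by -0.16 (SE 0.83, 95% interval -1.98 to 1.67, edgeR adjusted p = 0.932), and the lowest edgeR adjusted p of a member was 0.626. As a ratio, the interval for H2-Ab1 ran from 0.253 to 3.17 times the vehicle level. Without m1 the 7 members were all higher after VCR, with a median log2 fold change of 1.79 and a lowest edgeR adjusted p of 0.182.

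RCM1-NPFA tumors had lower mean levels than vehicle tumors for 7 of 7 members, none past the threshold, and the share of all tested genes called was 0%. Log2 fold changes lay between -1.23 for Ciita and -0.41 for H2-DMa, with a median of -0.98 beside 0.0028 over all tested genes. Cd74 averaged 260 CPM against 512 in vehicle, a log2 fold change of -0.98 (SE 0.89, 95% interval -2.92 to 0.97, edgeR adjusted p = 0.768). Without m1 the direction turned for all 7, to a median of 1.03 with a lowest edgeR adjusted p of 0.653.

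VCR+RCM1-NPFA tumors and vehicle tumors had similar means and wide intervals. The log2 fold changes were between -0.04 for H2-Aa and 0.15 for H2-Ab1, with a median of 0.04 beside 0.0016 over all tested genes, and 0 of 7 members were called where 0% of all tested genes were. H2-Aa averaged 196 CPM against 201 (95% interval of the log2 fold change -2.02 to 1.94, edgeR adjusted p = 0.995). Without m1 the median rose to 2.10, and the lowest edgeR adjusted p was 0.386. These 3 comparisons share the vehicle tumors and are not independent.

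Against the single drugs, the combination had higher mean levels of all 7 members, again with 0 of 7 called and 0% of all tested genes called in both comparisons. Against VCR the log2 fold changes were 0.13 for H2-DMa to 0.73 for Ciita, with a median of 0.32 and a lowest edgeR adjusted p of 0.871, beside a median of -0.0042 over all tested genes. Against RCM1-NPFA they were 0.48 for H2-DMa to 1.26 for Ciita, with a median of 1.07 and an edgeR adjusted p of 0.9999 for each, beside -0.0057 over all tested genes. Tumor m10, at 50.1 CPM of H2-Ab1, lay below the lowest RCM1-NPFA tumor (53.0), while m11 and m12 lay above the highest (112). The interaction of the drugs, which asks whether the VCR effect differs in the presence of RCM1-NPFA, was 0.53 for H2-DMa to 1.96 for Ciita (95% interval for Ciita -0.37 to 4.29), with a lowest edgeR adjusted p of 0.433. It called 0 of 7 members and 0% of all tested genes. Without m1 the median of the interaction moved from 1.25 to -0.64.

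None of the 5 pairs of groups compared was separated for any member. The number of members whose groups did not overlap in CPM was 0 of 7 in each of the 5 pairs compared, where 24.4% of tested genes did not overlap between VCR and vehicle, 11.4% between RCM1-NPFA and vehicle, 12.6% between the combination and vehicle, 12.9% between the combination and VCR and 5.88% between the combination and RCM1-NPFA. Each member was also compared on its own by an exact permutation test (two-sided, on log2(CPM + 0.1)). Its smallest possible p with 3 against 3 tumors is 0.1, and the lowest p over the members and these 5 pairs was 0.3. DESeq2's Wald test called 0 members at an adjusted p of 0.1 in any comparison. Over all genes it called 2208 for VCR, 278 for RCM1-NPFA and 60 for the combination, each against vehicle. It called 467 for the interaction and 0 for the combination against either single drug. At an unadjusted p of 0.05 edgeR called 0 of 7 members in each comparison, where it called 22.1% of all tested genes for VCR against vehicle, 9.78% for RCM1-NPFA against vehicle, 7.31% for the combination against vehicle, 5.26% for the combination against VCR, 2.07% for the combination against RCM1-NPFA and 13.8% for the interaction. Without m1 these counts differed. At the same unadjusted threshold 4 of 7 members were then higher after VCR than in vehicle (19.1% of all tested genes called in either direction) and 6 of 7 after both drugs (10.2%), with lowest edgeR p-values of 0.0193 and 0.00899. For the combination against RCM1-NPFA 1 member, Ciita, was called (2.71%), and 0 members were called for RCM1-NPFA against vehicle (8.85%), the combination against VCR (5.76%) and the interaction (11.5%). None of these passed the adjusted threshold of 0.1. Tumor m1 was left out for its level in these same genes, and leaving out the highest vehicle tumor raises the fold changes against vehicle by construction. The values without m1 thus show how far the result rests on m1 and cannot test a treatment effect. With all 12 tumors, the differences in the comparisons tested were therefore within the spread between tumors, and the intervals include changes of several fold. VCR against RCM1-NPFA was not among these comparisons. Between these groups the levels of H2-Aa (127 to 183 against 53.9 to 107 CPM) and H2-Ab1 (131 to 174 against 53.0 to 112 CPM) did not overlap. Nor did those of H2-Eb1, Cd74, H2-DMa and H2-DMb1, while those of Ciita did. The share of all tested genes without overlap was not computed for this pair, so this lack of overlap cannot be weighed. In the 5 pairs above that share was 5.88% to 24.4%. The members also followed nearly the same order of tumors, so they are not separate observations.

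**Figure D2:**
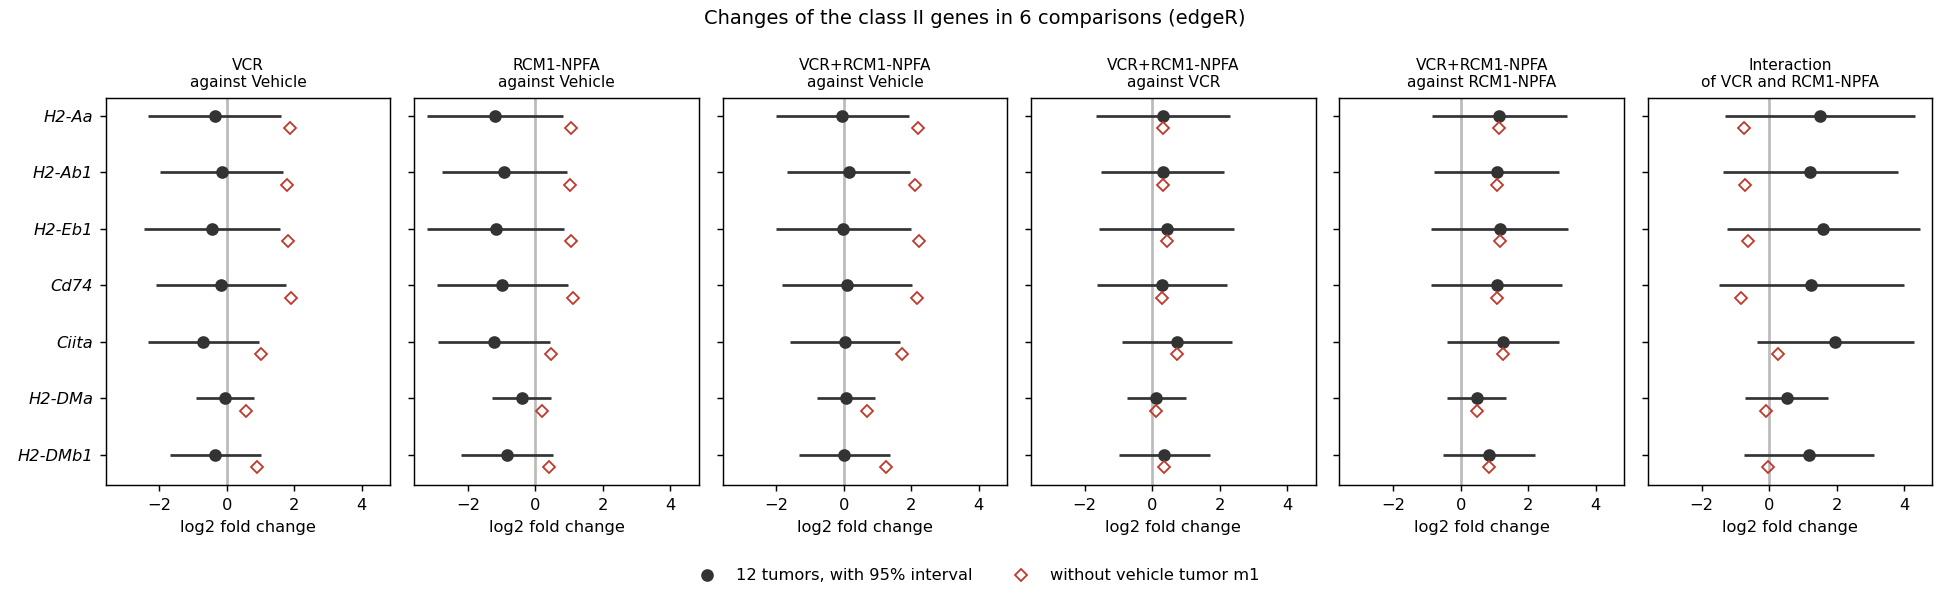
Log2 fold change of each member in the 6 comparisons, with black points and bars for the edgeR estimate and its 95% interval from 12 tumors and red diamonds for the estimate without vehicle tumor m1. Every black bar crosses 0, and in the comparisons with vehicle every diamond lies above 0.

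Apart from Ciita, the factors of class II promoters varied little between tumors. Of the 8 genes of this list, 7 of which are not members, 1 was called after VCR, where 5.55% of all tested genes were called, and 0 in the other comparisons. Rfx5, a subunit of the RFX complex, was at 50.4, 49.0 and 50.8 CPM in vehicle tumors and at 38.1, 36.1 and 43.4 CPM in VCR tumors. The groups did not overlap, with a log2 fold change of -0.35 (SE 0.078, edgeR adjusted p = 0.0726). RCM1-NPFA tumors (45.0, 47.6 and 46.6 CPM) and VCR+RCM1-NPFA tumors (45.9, 43.1 and 48.2 CPM) lay between them or overlapped with the VCR tumors. The call was lost when m1, m2, m4, m5 or m11 was left out and when only the VCR and vehicle tumors were fitted, with edgeR adjusted p-values up to 0.298. Rfxank, another RFX subunit, ranged only from 24.8 to 31.7 CPM, and Nfya and Nfyc, subunits of NF-Y, from 94.6 to 118 and from 59.9 to 76.7 CPM. The median highest over lowest level of the list was 1.34. Tumor m1, with the most H2-Aa, and m3, with the least, had nearly equal Rfx5.

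Other class II chain and chaperone genes were low. The list of 12 names held 11 genes of the files, of which 10 were tested and none was called in any comparison. H2-Ob and H2-Oa encode the H2-O dimer, which restrains H2-DM mainly in B cells. H2-Ob was highest in VCR tumor m4 at 6.22 CPM and 1.09 to 2.55 in the other tumors, and H2-Oa was likewise highest in m4 at 1.84 CPM. H2-Eb2, a further beta chain, stayed between 0.0638 and 1.17 CPM.

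Genes for endosomal processing were abundant and steady. None of the 10 genes of this list was called, and their summed level was 3364 CPM in m2 to 4691 CPM in m12. Ctsd and Ctsb, lysosomal proteases, were at 717 to 994 and 700.3 to 1063 CPM. Ctss, the protease that trims the invariant chain in many antigen-presenting cells, was highest in m12 (570 CPM) and m1 (543 CPM) and lowest in m2 (306 CPM).

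Several interferon gamma genes varied along with the members, among them Irf1 (r = 0.893 with the mean standardized level of the members over 12 tumors, a description) and Gbp2 (r = 0.869). Other genes of the list did so little or not at all, with r = 0.309 for Jak1, 0.203 for Ifngr2 and -0.199 for Ifngr1. None of the 14 genes was called in any comparison, and the median log2 fold changes of the list were -0.35 after VCR, -0.60 after RCM1-NPFA and 0.16 after both drugs, each against vehicle. Their median highest over lowest level was 3.93. Irf1, a transcription factor induced by interferon, ranged from 214 CPM in m3 to 382 CPM in m12, and Ifngr1, a chain of the interferon gamma receptor, was highest in m3 (187 CPM). Ifng itself was listed at 0 in m3, which at 3 counts allows up to 0.101 CPM, and was at 1.51 CPM in m12.

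Markers of cell types that can carry class II molecules were checked beside the members, and their part in the class II values was not tested. Macrophage markers were present and steady, with 10 of 10 genes tested, none called, and a summed level of 1741 to 2357 CPM in vehicle, 1980 to 2215 after VCR, 1883 to 2248 after RCM1-NPFA and 1760 to 2571 after both drugs. Their median highest over lowest level was 1.63. C1qa and C1qc, complement subunits made by macrophages, were at 364 to 612 and 331 to 546 CPM, both lowest in m2 and highest in m12, and C1qa was at 536 CPM in m1 and 425 CPM in m3. Dendritic cell markers summed to 28.3 to 75.5 CPM in vehicle, 54.4 to 60.3 after VCR, 30.7 to 69.6 after RCM1-NPFA and 47.2 to 66.7 after both drugs, lowest in m3 and highest in m1, with 10 of 10 tested and none called. Flt3, the receptor on which dendritic cells depend, was at 2.44 CPM in m1 and 0.235 CPM in m3. Itgax, an integrin of dendritic cells and some macrophages, was at 10.7 CPM in m8 and 44.2 in m1, and Clec10a, a lectin of dendritic cells and macrophages, at 1.55 CPM in m3 and 18.6 in m5.

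B cell markers were near 0 in 11 tumors and raised in 1. Their sum was 2.55 to 4.44 CPM in those 11 and 40.2 CPM in VCR tumor m4, where Cd79a, a part of the B cell receptor, was at 10.7 CPM and at 0.364 to 1.05 CPM elsewhere, and its partner Cd79b at 6.41 CPM. Only 4 of the 8 markers passed the filter on low counts, and none was called. Tumor m4 ranked 4 or 5 in every class II member and was not the highest. T cell markers summed to 6.39 to 42.2 CPM in vehicle, 10.2 to 33.2 after VCR, 8.04 to 15.1 after RCM1-NPFA and 8.95 to 32.5 after both drugs, with 8 of 8 tested and none called. Cd8a, the co-receptor of cytotoxic T cells, was at 13.6 CPM in m1, 8.74 in m12 and 6.53 in m11, the same leading tumors as in the members. The summed T cell level was however next to highest in VCR tumor m4 (33.2 CPM, against 42.2 in m1, 32.5 in m12 and 27.2 in m11). Cd4, the co-receptor of the T cells that read class II, was highest in m4 (5.05 CPM, against 2.99 in m1), as were Lck (6.79 CPM) and Cd5 (2.29 CPM), kinase and surface receptor of T cells. Cd3d and Cd3g, chains of the T cell receptor complex, were also highest in m1 (5.31 and 5.25 CPM) and lowest in m8 (2.49 and 0.287 CPM). Pan-leukocyte genes summed to 455 to 696 CPM, with none of 4 called, and Laptm5 and Coro1a were at 214 to 349 and 88.5 to 148 CPM.

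**Figure D3:**
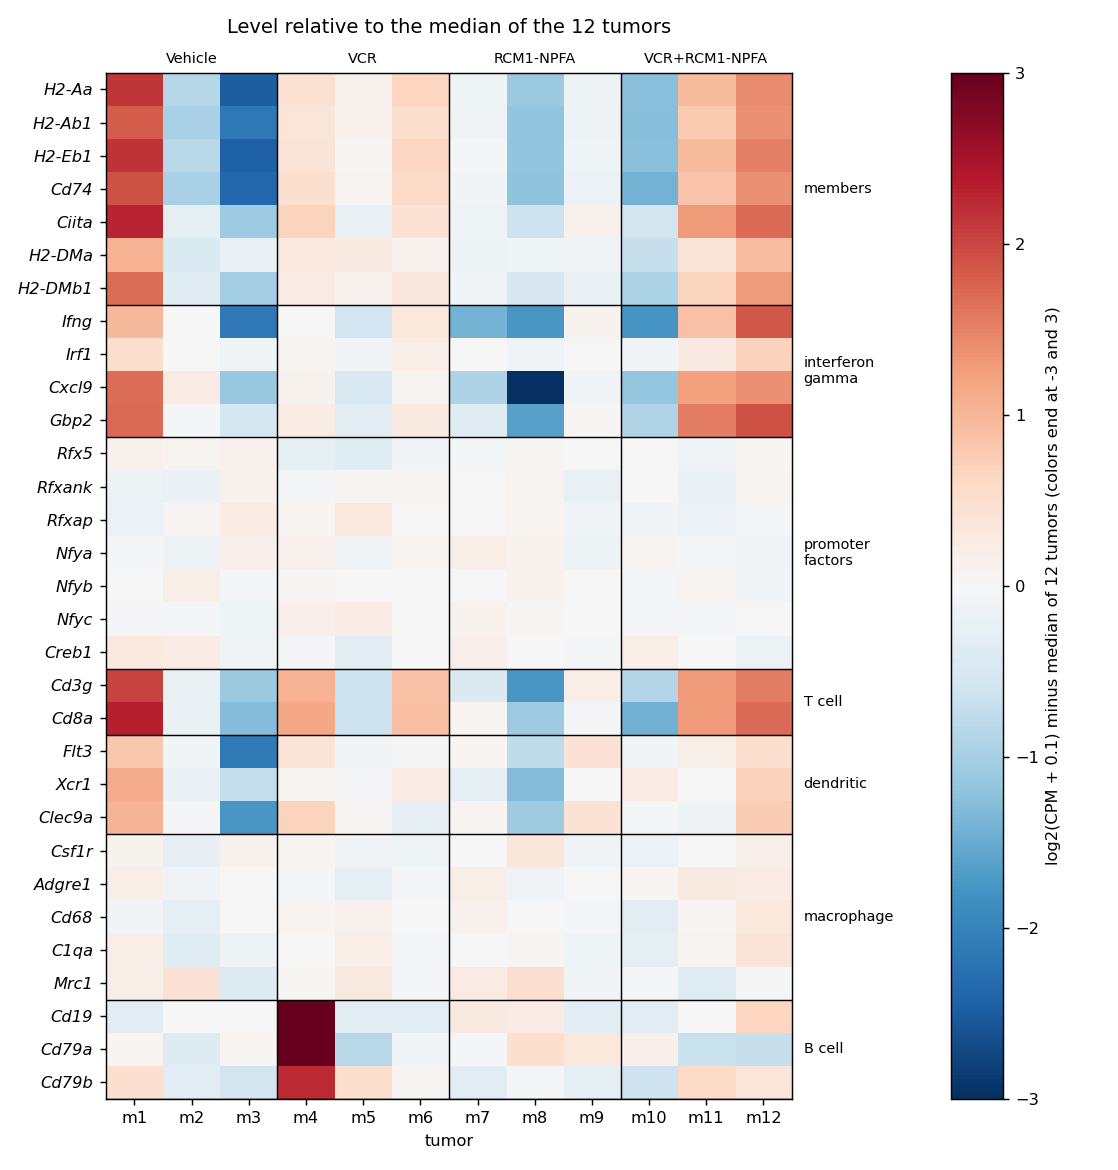
Level of the 7 members and of genes from 6 of the lists in each tumor, as log2(CPM + 0.1) minus the median of the 12 tumors, with red above and blue below the median and lines between the groups. The members and the interferon gamma genes shown (Ifng, Irf1, Cxcl9 and Gbp2) are high in m1, m11 and m12. The T cell genes shown (Cd3g and Cd8a) are high in these and in m4. Promoter factors and the macrophage genes shown (Csf1r, Adgre1, Cd68, C1qa and Mrc1) are pale throughout, and B cell genes stand out in m4. Other genes of these lists are left out, among them Ifngr1 (r = -0.199 with the members' mean standardized level) and the macrophage gene Fcgr1 (r = 0.849).

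Relations across the 12 tumors are given for H2-Ab1 with 4 genes, as Pearson's r and Spearman's rho of log2(CPM + 0.1) with permutation tests of 100000 resamples, adjusted over the 5 relations computed. With Ciita r was 0.949 (permutation p = 1e-05, the smallest that the resamples can give, adjusted p = 5e-05) and rho 0.958 (permutation p = 2e-05, adjusted p = 0.0001). It was 0.919 without m1 and m12, the tumors farthest from the median of Ciita, and 0.984 for deviations from the group means. This relation was thus as high within the treatment groups as over all tumors. With the dendritic gene Flt3 r was 0.816 (permutation p = 0.00016, adjusted p = 0.0004) and rho 0.825 (permutation p = 0.0015, adjusted p = 0.0025), with r = 0.682 without m1 and m3 and 0.819 within groups. Flt3 does not stand for all dendritic markers. As a description, r with the mean standardized level of the 7 members was 0.829 for Itgax, 0.770 for Flt3, 0.769 for Clec9a and 0.765 for Xcr1. It was 0.626 for Batf3, 0.556 for Ccr7, 0.42 for Siglech, 0.323 for Clec10a, 0.291 for Zbtb46 and 0.092 for Cd209a.

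For Csf1r, the growth factor receptor of macrophages, r was 0.107 (permutation p = 0.74, adjusted p = 0.74) and rho 0.245 (permutation p = 0.44, adjusted p = 0.44). The value was 0.339 without m2 and m8 and 0.206 within groups. Csf1r does not stand for all macrophage markers. As a description, r with the mean standardized level of the 7 members was 0.849 for Fcgr1, 0.806 for C1qb, 0.744 for C1qa and 0.658 for C1qc, between 0.456 and 0.480 for Cd68, Cd14 and Adgre1, and 0.187 for Csf1r, -0.027 for Mrc1 and -0.19 for Mertk. For the B cell gene Cd79b r was 0.539 (permutation p = 0.068, adjusted p = 0.085) and rho 0.762 (permutation p = 0.005, adjusted p = 0.0063), so the 2 measures fell on different sides of 0.05. Tumor m4 decided the first, since without m4 r was 0.805 (permutation, adjusted p = 0.0043). It was 0.782 without m4 and m10 and 0.499 within groups. The other tested B cell markers were less like the members than Cd79b (r = 0.540 with their mean standardized level), at 0.199 for Pax5, 0.173 for Fcer2a and -0.039 for Cd79a.

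**Figure D4:**
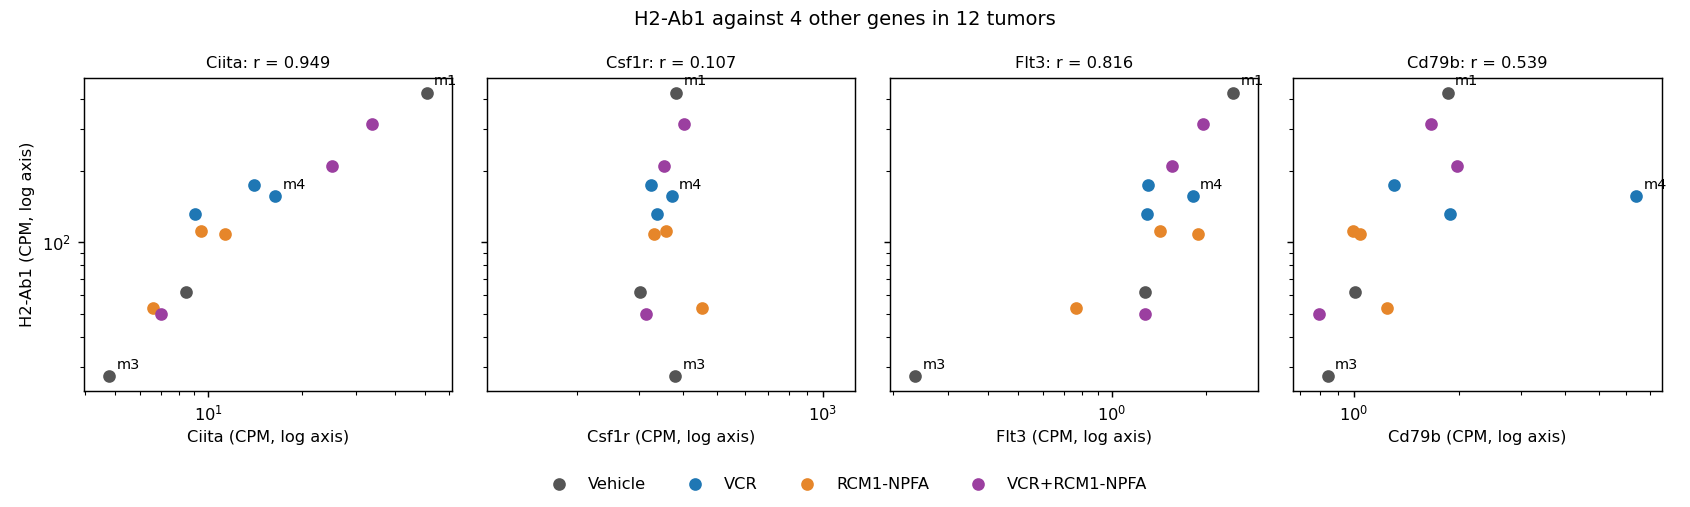
H2-Ab1 against Ciita, Csf1r, Flt3 and Cd79b, both in CPM on log axes, with 1 point per tumor colored by group and tumors m1, m3 and m4 named. H2-Ab1 climbs with Ciita across a wide range, Csf1r stays in a narrow column, and m4 lies to the right for Cd79b.

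The genes whose levels most resembled the members were found among the tested genes by Pearson's r, over 12 tumors, with the mean of the standardized log2(CPM + 0.1) of the 7 members. This likeness is a description, since all points share the same libraries. The 10 highest were Hrh2 (r = 0.971), a histamine receptor, Plbd1 (0.969), Gbp8 (0.961), Psmb8 (0.959), a subunit of the immunoproteasome, Clec12a (0.955), a lectin of myeloid cells, Gbp9 (0.955), H2-Q6 (0.955), Adgrg5 (0.952), Tmem229b (0.952) and Gm41611 (0.950). Gbp8 and Gbp9 are interferon-induced GTPases. H2-Q6 is a class I gene with close paralogs that may share its reads, so its level is uncertain. Psmb8 ranged from 21.8 CPM in m3 to 124 in m1, and m3 was the lowest tumor for all of the 10 except Gbp8, lowest in m10. Among the listed genes outside the members, Cd8a ranked 12 by this measure (r = 0.948) and Ctsh, an endosomal protease, 32 (r = 0.924).

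Transcript estimates were examined for Cd74 and Ciita. Cd74, on chromosome 18 from 60803849 to 60812652, has a longer form with 9 exons beside that with 8, the additional exon coding for a domain that inhibits cysteine proteases. The longer form took 20.5% ± 1.84 (SD, n = 3) of Cd74 TPM in vehicle, 20.4% ± 1.46 after VCR, 19.2% ± 3.12 after RCM1-NPFA and 19.1% ± 1.93 after both drugs. Its share was 21.2% in m1 and 21.8% in m3, so it stayed within the spread between tumors while Cd74 itself differed 19.2-fold.

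Ciita, on chromosome 16 from 10480014 to 10531064, is transcribed from several first exons that different cell types use. The estimated counts assigned to the upstream first exon, at 10480059 on the plus strand, were 486 in m1, 123 in m12, 104 in m4 and at most 51.4 in each other tumor. Those of the downstream first exon, at 10489781, which is known for its response to interferon gamma, were 351 in m12, 257 in m11, 227 in m1 and at most 61.0 elsewhere. They made up 33.3% and 33.2% of Ciita counts in m12 and m11, and 13.8% in m1. The middle first exon, at 10488279, was listed at 0 in 12 of 12 tumors. Between 55.0% and 100% of Ciita counts were assigned to RefSeq model transcripts, and all these transcripts share most of their sequence, so the division between them is uncertain.

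**Figure D5:**
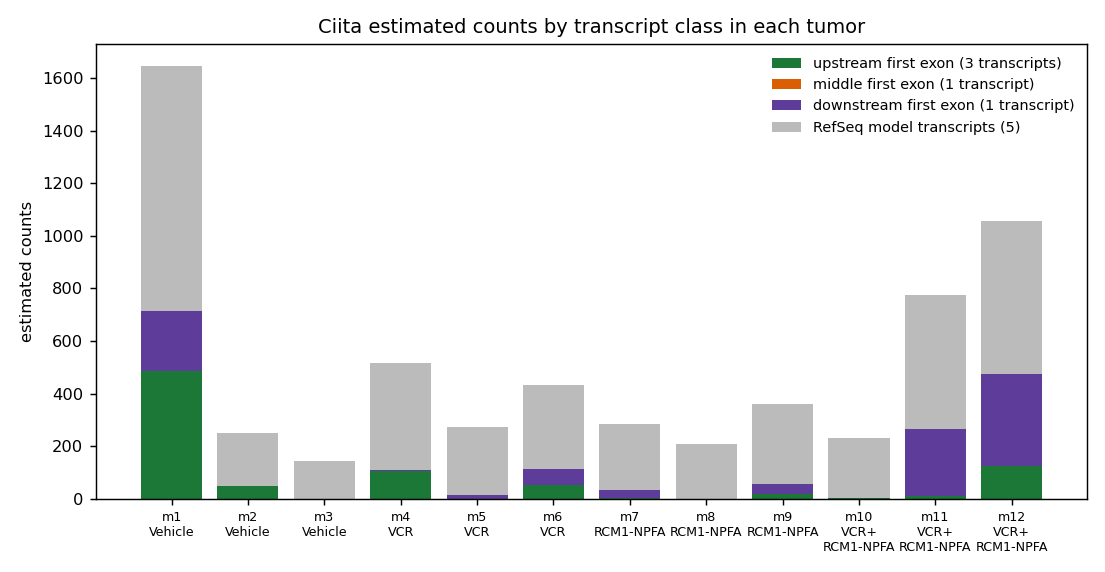
Estimated counts of Ciita in each tumor, stacked by the first exon of the transcript to which they were assigned, with model transcripts in gray. Counts of the downstream first exon are highest in m12, m11 and m1, and those of the upstream first exon in m1.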

How the data were processed

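RNA-seq was analysed for 12 tumors in 4 groups of 3. Per the labels and the study's methods, the authors prepared poly-A libraries, described both as from a stranded kit and as non-stranded, and quantified them with kallisto on GRCm38 transcripts (kallisto's version is not given in the sources used here). The authors deposited for each transcript an estimated count, which is neither normalized nor whole, a TPM value and other columns with transcript lengths.

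Transcripts (120299 of 120299) were matched to RefSeq genes of GRCm38.p6, and estimated counts were summed over the 38898 genes and rounded. Deposited TPM values were summed per gene and used to compare levels between genes. Library totals were 29342195 to 32108055. Genes were kept by filterByExpr with a minimum count of 10, leaving 17602, normalized by TMM and tested with edgeR 4.0.16 (R 4.3.3, quasi-likelihood F test) in one model of 4 groups without covariates, with Benjamini-Hochberg adjustment and a threshold of 0.1. CPM values use TMM-scaled totals, and log2 CPM a pseudocount of 0.1. Exact permutation tests (scipy 1.17.1, two-sided) were run for single members, and two-sided permutation tests with a threshold of 0.05 for 5 relations, 1 of which is not reported here. The fit was tested on simulated data with known changes.

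The members and 16 gene lists were chosen with earlier results of these data known. Text names the members, the partners of the relations, the 10 most similar genes, and of each list its called genes (at most 4), or else the 2 most abundant, and defining markers at 0. Further list genes given as examples were chosen after their values were seen. Alternatives were DESeq2's size factors, no filter, transcript length offsets, only the groups compared, limma-voom (limma 3.58.1), DESeq2 1.42.0 and leaving out each tumor. For relations they were a pseudocount of 1 CPM, TPM and leaving out each tumor. A pseudocount of 1 CPM in the exact tests was added after seeing the data.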

Additional observations from a re-analysis of the deposited data

How the results depend on the processing

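The count of 0 of 7 members called held in all 6 comparisons under all alternatives run. Of 245 log2 fold changes of members under alternatives other than leaving out a tumor, 232 kept their direction and 13 reversed, all with limma-voom, which weights the tumors on the log scale (the cause was not tested). Against vehicle, limma-voom gave after VCR 0.80 for H2-Aa, 0.76 for H2-Ab1, 0.71 for H2-Eb1, 0.85 for Cd74, 0.092 for H2-DMa and 0.12 for H2-DMb1, and after both drugs 0.76 for H2-Aa and 0.77 for H2-Eb1. For the combination against VCR it gave -0.036 for H2-Aa, -0.040 for H2-Ab1, -0.10 for Cd74 and -0.025 for H2-DMa, and for the interaction -0.094 for Cd74.

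With 1 tumor left out, 49 of 504 member values reversed, 22 of them without m1 and 11 without m12. The log2 fold changes of those members then ranged, for VCR against vehicle, from -0.89 to 1.88 for H2-Aa, -0.66 to 1.79 for H2-Ab1, -0.97 to 1.80 for H2-Eb1, -0.70 to 1.90 for Cd74, -1.17 to 1.00 for Ciita, -0.33 to 0.56 for H2-DMa, -0.76 to 0.89 for H2-DMb1. For RCM1-NPFA against vehicle they ranged from -1.72 to 1.05 for H2-Aa, -1.42 to 1.03 for H2-Ab1, -1.71 to 1.07 for H2-Eb1, -1.50 to 1.11 for Cd74, -1.70 to 0.47 for Ciita, -0.68 to 0.21 for H2-DMa, -1.25 to 0.41 for H2-DMb1. For the combination against vehicle the ranges were -0.57 to 2.20 for H2-Aa, -0.40 to 2.10 for H2-Ab1, -0.57 to 2.23 for H2-Eb1, -0.45 to 2.18 for Cd74, -0.43 to 1.73 for Ciita, -0.34 to 0.69 for H2-DMa, -0.51 to 1.26 for H2-DMb1. Against VCR they were -0.19 to 0.79 for H2-Aa, -0.24 to 0.77 for H2-Ab1, -0.13 to 0.90 for H2-Eb1, -0.27 to 0.75 for Cd74, -0.28 to 0.47 for H2-DMa, -0.16 to 0.78 for H2-DMb1. The interaction ranged from -0.73 to 2.04 for H2-Aa, -0.72 to 1.73 for H2-Ab1, -0.64 to 2.14 for H2-Eb1, -0.83 to 1.77 for Cd74, -0.084 to 0.88 for H2-DMa, -0.044 to 1.63 for H2-DMb1. For the combination against RCM1-NPFA no member reversed.

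The 977 genes called over all genes for VCR against vehicle became 599 with no filter, 465 when only the compared groups were fitted and 2208 with DESeq2. With 1 tumor left out the count ranged from 0 (m2, m4 or m5) to 2012 (m6), with 1 without m11, 243 without m12, 281 without m1 and 525 without m10. The 0 genes of RCM1-NPFA against vehicle became 278 with DESeq2 and 0 to 8 with 1 tumor left out (8 without m3), those of the combination against vehicle 60 with DESeq2 and 0 to 44 (44 without m9), and those of the interaction 467 with DESeq2 and 0 to 1 (1 without m7). At an unadjusted p of 0.05 edgeR called 3892 genes after VCR, 1722 after RCM1-NPFA and 1286 after both drugs against vehicle, 926 and 364 for the combination against VCR and RCM1-NPFA, and 2437 for the interaction.

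The relation of H2-Ab1 with Csf1r ranged from -0.023 to 0.43 with 1 tumor left out and was below 0 without m2, m10 or m12. That with Cd79b ranged up to 0.805, past the threshold, without m4. No paired analysis was possible because the tumors carry the numbers 1 to 12 with none shared between groups.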

Other observations

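Costimulation and turnover genes were steadier than the class II members. None of the 8 genes of this list was called in any comparison, with a summed level of 128 to 158 CPM. Marchf8, a ubiquitin ligase that can remove class II molecules from the surface, was at 71.0 to 87.9 CPM, and Icosl, a costimulatory ligand, at 13.6 to 24.4 CPM. Cd86, a costimulatory ligand for T cells, was at 7.89 CPM in m10 and 14.2 CPM in m12.

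Genes of other cell types were called in VCR tumors against vehicle only for lists of muscle and vessels. Of all tested genes 5.55% were called in this comparison. Of 6 RMS markers 3 rose, namely Des, Myod1 and Myog, and Des averaged 254 CPM against 9.74 in vehicle (log2 fold change 4.70, SE 1.29, edgeR adjusted p = 0.0908). Of 7 muscle fibre genes 2 rose, Acta1 (log2 fold change 7.37, edgeR adjusted p = 0.0946) and Mylpf (7.59, edgeR adjusted p = 0.0918), and of 5 endothelial genes Tie1 rose (0.81, edgeR adjusted p = 0.0763). Each of these 6 calls was lost without m2, without m4, without m5 and without m11, with edgeR adjusted p-values of up to 0.315. Those of Des, Acta1 and Mylpf were also lost without m1, m3, m10 or m12 and with limma-voom (adjusted p = 0.127, 0.155 and 0.268), that of Myod1 without m1, m3 or m12, and that of Tie1 without m12 and when only the compared groups were fitted (edgeR adjusted p = 0.131). DESeq2 gave no adjusted p for Myod1. Des, Acta1 and Mylpf were highest in RCM1-NPFA tumor m9, at 573, 3031 and 773 CPM, and Myod1, Myog and Tie1 in VCR tumors. The median log2 fold change of the muscle fibre list against vehicle was 7.37 after VCR, 7.59 after RCM1-NPFA and 6.10 after both drugs. Neutrophil markers summed to 12.3 to 22.8 CPM, led by Csf3r (8.06 to 20.9 CPM) and S100a9 (0.552 to 2.45 CPM). Adipocyte markers summed to 6.49 to 84.5 CPM, mostly Fabp4 (6.32 to 62.7 CPM), with Adipoq at 0.0641 to 7.46 CPM. Keratinocyte markers summed to 5.07 to 6.89 CPM, nearly all Krt10, and Krt14 was at most 0.235 CPM. None of the genes of these 3 lists was called in any comparison. Ly6g, a defining neutrophil marker, was listed at 0 in all tumors except m12 (0.0320 CPM).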
